A study of Mus musculus with 4 samples.

Results

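Glycolytic enzyme genes were described as a set of 10 genes, Hk1, Hk2, Gpi1, Pfkl, Aldoa, Gapdh, Pgk1, Eno1, Pkm and Ldha, out of 55399 genes in the deposited count table. They were chosen by name, 1 row of the table for each, with earlier results of these data known. All 10 were found and all 10 passed the filter on low counts. The study measured bulk RNA-seq in 4 libraries of mouse bone marrow cells labelled Lsk, the usual name of a fraction without lineage markers that carries Sca-1 and Kit and holds blood stem cells and multipotent progenitors. Of these, 2 libraries had the genotype Ppm1bfl/fl, in which both alleles of the phosphatase gene Ppm1b are flanked by loxP sites, and 2 had the genotype Ppm1bCKO, a conditional knockout. The Cre line, the age and sex of the mice, and whether a library came from 1 mouse or several are not given in the sources used here. P-values therefore measure only the spread between these libraries, which may be technical.

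Glycolysis splits glucose into pyruvate in the cytosol and yields ATP without oxygen. Several of its steps can be run by more than one enzyme, each from its own gene, and tissues differ in which of these isoenzymes they make. Blood stem cells at rest in hypoxic marrow are known to draw on glycolysis more than their cycling progeny, and the transcription factor HIF-1 is a known activator of many glycolytic genes. Mature red cells, which have no mitochondria, depend on glycolysis altogether.

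Total counts ran from 22393973 to 30045382 per library, and the 10 genes held between 1645 and 24722 counts each, so that counting error alone was 0.636% to 2.47% of a value. Levels are given in CPM, counts scaled to a common library size with TMM, a correction for differences in library makeup, and fold changes are Ppm1bCKO over Ppm1bfl/fl. Ppm1b itself, the targeted gene, stood at 80.8 and 82.5 CPM in Ppm1bfl/fl, with 84.3 and 121 CPM in Ppm1bCKO (edgeR adjusted p = 0.717). It was thus not lower in the libraries labelled Ppm1bCKO; a count summed over all exons cannot check for a deleted part of the gene, and every direction given here rests on the labels. Markers of the labelled cell type were present but low beside those of mature blood cells. Among 8 Lsk markers none was at 0, with Kit at 121 to 228 CPM and Ly6a, which encodes Sca-1, at 17.7 to 22.2 CPM, while the haemoglobin gene Hbb-bs stood at 2783 to 7038 CPM, the immunoglobulin gene Igha at 1628 to 10296 CPM and the neutrophil gene S100a9 at 1159 to 1598 CPM. The levels below are those of all the cells collected, in which fewer cells of a type and less RNA per cell cannot be told apart. Ppm1bCKO replicate 2 stood apart from the other libraries: it was the highest or the lowest of the 4 for 73.9% of tested genes, against 33.0% to 50.8% for the others.

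None of the 10 glycolytic enzyme genes passed the test for a change between the genotypes. By edgeR's quasi-likelihood test, 0 of 10 passed an adjusted p of 0.05, where 0.372% of 16393 tested genes passed, 0.061% of them higher and 0.311% lower in Ppm1bCKO, and 0 of 10 had an unadjusted p under 0.05, where 6.44% of tested genes did. DESeq2 and limma-voom also called 0 of 10, beside 1.24% and 0.305% of all genes they tested, with 0 of 10 at an unadjusted p under 0.05. Of the 10 log2 fold changes 5 were positive and 5 negative, with a median of 0.0028 beside -0.0032 over all tested genes. The 95% interval of each of the 10 lay within a 2-fold change in either direction, the lowest bound being -0.68 and the highest 0.59 on the log2 scale; such narrow intervals were found for 62.2% of tested genes. Intervals of this width leave changes of up to about those bounds possible. Without Ppm1bCKO replicate 1, when Ppm1bCKO replicate 2 alone represented the genotype, edgeR called 2 of the 10, Hk2 and Gapdh, both lower, along with 19.4% of all tested genes.

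**Figure D1:**
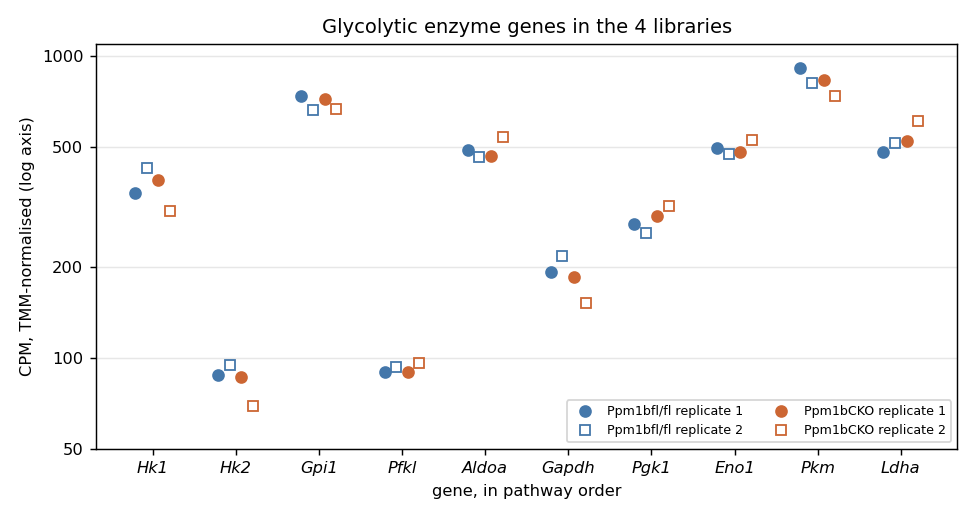
Level of each glycolytic enzyme gene in CPM on a log axis, with the genes in pathway order; blue symbols are Ppm1bfl/fl, orange symbols are Ppm1bCKO, filled circles are replicate 1 and open squares replicate 2. Levels run from 69.3 CPM (Hk2) to 915 CPM (Pkm), and the symbols of some genes cover the same range, as for Aldoa, Eno1 and Ldha, and for Hk2 and Pfkl.

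Several of these genes have near-identical copies elsewhere in the genome, which bears on what their counts can show. Processed pseudogenes are copies of a spliced message put back into the genome. In the principal transcript of Gapdh, 78.0% of all windows of 100 bases also occurred, letter for letter, in a transcript of another annotated gene, and 81 of the 86 genes concerned were pseudogenes. The share was 67.0% for Pgk1, 59.0% for Eno1, 9.82% for Pkm, 7.40% for Gpi1 and 1.32% for Ldha, and 0% for Hk1, Hk2, Pfkl and Aldoa. Reads from such windows fit more than one place, and the sources used here do not say how the counting treated them. The levels of Gapdh, Pgk1 and Eno1 are therefore uncertain. The windows of 50 bases that occur in the most other genes are printed here in capitals for Gapdh and Eno1, with 10 bases on each side in lower case, from the GENCODE transcripts of the same mouse build, 5′ to 3′. The Gapdh window occurred in 84 other genes and the Eno1 window in 5.
Gapdh: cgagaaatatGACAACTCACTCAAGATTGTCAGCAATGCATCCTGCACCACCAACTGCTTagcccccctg
Eno1: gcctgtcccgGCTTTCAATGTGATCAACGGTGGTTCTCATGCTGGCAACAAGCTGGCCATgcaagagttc

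**Figure D2:**
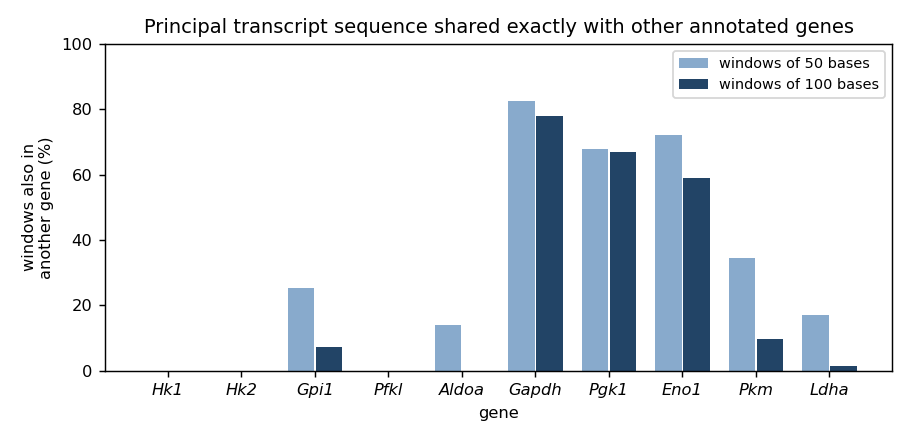
Share, in percent, of all windows of 50 bases (light) or 100 bases (dark) in the principal transcript of each gene that also occur exactly in a transcript of another annotated gene. Gapdh, Pgk1 and Eno1 stand at 59.0% to 78.0% for windows of 100 bases, and the other 7 at 9.82% or less.

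The counts given to those copies were small except for Gapdh. The 81 pseudogenes that share windows of 100 bases with Gapdh held 4072 counts over the 4 libraries, 20.9% of the 19517 counts of Gapdh itself. For Pgk1 and Eno1, in contrast, 3 such pseudogenes each held 0.57% and 0.834% of the counts of the gene. Gapdh and its 81 copies together stood at 229 and 262 CPM in Ppm1bfl/fl, with 217 and 196 CPM in Ppm1bCKO, 1.19-fold higher in Ppm1bfl/fl on the means, beside 1.21-fold for Gapdh alone. By name the table lists 12 pseudogenes and retrogenes of the 10 genes, 8 of them with any count, and Eno1b, an intronless copy of Eno1, was the most abundant with 1121 counts in all.

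The first steps trap glucose in the cell and prime it for splitting. Hexokinases add a phosphate to glucose, and Hk1 (chromosome 10, 62268855 to 62379908, mm10), the widely expressed form, stood at 353 and 425 CPM in Ppm1bfl/fl, with 389 and 306 CPM in Ppm1bCKO. The genotypes overlapped, and the highest and lowest values were both replicate 2 libraries. Its log2 fold change was -0.16 ± 0.20 (SE). Hk2 (chromosome 6, 82725025 to 82774454), the form that is induced by growth signals and hypoxia, stood at 87.6 and 94.9 CPM in Ppm1bfl/fl, with 86.7 and 69.3 CPM in Ppm1bCKO. Both Ppm1bCKO libraries lay below both others, replicate 1 by less than 1 CPM, and the log2 fold change was -0.23 ± 0.18 (edgeR adjusted p = 0.735). Gpi1 (chromosome 7, 34201330 to 34230336), the isomerase that turns glucose phosphate into fructose phosphate, stood at 742 and 666 CPM in Ppm1bfl/fl, with 722 and 670.4 CPM in Ppm1bCKO, so that each genotype had a high and a low library (-0.02 ± 0.18). Pfkl (chromosome 10, 77986947 to 78010083) encodes the liver-type subunit of phosphofructokinase, the main control point of the pathway. It was the steadiest of the 10, at 89.9, 93.2, 89.7 and 96.2 CPM in Ppm1bfl/fl replicates 1 and 2 and Ppm1bCKO replicates 1 and 2, a highest value 1.07 times the lowest.

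The middle of the pathway splits the sugar and makes the first ATP. Aldoa (chromosome 7, 126795234 to 126800751), the aldolase that cuts fructose bisphosphate, stood at 489 and 463 CPM in Ppm1bfl/fl, with 468 and 539.5 CPM in Ppm1bCKO, with the genotypes overlapping (0.08 ± 0.18). Gapdh (chromosome 6, 125161715 to 125166467), the dehydrogenase that makes NADH and is often used as a reference gene in expression assays, stood at 193 and 218 CPM in Ppm1bfl/fl, with 186 and 152 CPM in Ppm1bCKO. Both Ppm1bCKO libraries lay below both Ppm1bfl/fl libraries. Its log2 fold change of -0.28 ± 0.18 was the most negative of the 10, with a 95% interval from -0.68 to 0.12 (edgeR adjusted p = 0.72). Pgk1 (chromosome X, 106187100 to 106203699), the kinase of the next step, which forms ATP, lay the other way, at 277 and 259.9 CPM in Ppm1bfl/fl, with 295 and 319 CPM in Ppm1bCKO. The genotypes did not overlap, and its log2 fold change of 0.19 ± 0.16 was the most positive of the 10, with an interval from -0.18 to 0.57 (edgeR adjusted p = 0.747).

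The last steps make pyruvate and lactate. Eno1 (chromosome 4, 150236721 to 150248879), the enolase of most tissues, stood at 498 and 477 CPM in Ppm1bfl/fl, with 482 and 527 CPM in Ppm1bCKO, with the genotypes overlapping (0.05 ± 0.17). Pkm (chromosome 9, 59656368 to 59679375) encodes the M forms of pyruvate kinase, which differ by 1 exon and which these gene counts do not separate. It had the highest CPM of the 10, at 915 and 819.7 CPM in Ppm1bfl/fl and 837 and 739 CPM in Ppm1bCKO (-0.14 ± 0.19). Ldha (chromosome 7, 46841475 to 46855627), which turns pyruvate into lactate and restores NAD, stood at 484 and 517 CPM in Ppm1bfl/fl, with 524 and 611 CPM in Ppm1bCKO. The genotypes did not overlap, with Ppm1bCKO replicate 1 just above Ppm1bfl/fl replicate 2, and the log2 fold change was 0.18 ± 0.18 (edgeR adjusted p = 0.769).

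In all, 4 of the 10 genes had genotypes without overlap, Hk2 and Gapdh lower and Pgk1 and Ldha higher in Ppm1bCKO, or 40%, close to the 41.1% of all tested genes (20.6% in each direction). With each library's trend with gene length removed, 3 of the 10 did not overlap, Pgk1 no longer among them. The log2 fold change of Pgk1 was then 0.08, below those of Ldha (0.14), Pfkl (0.11) and Eno1 (0.10). The summed level of the 10 genes was 4128 and 4033 CPM in Ppm1bfl/fl and 4078 and 4029.9 CPM in Ppm1bCKO. The means were 4081 ± 67.1 and 4054 ± 34.3 CPM (SD, n = 2), a ratio of 0.993 (two-sided exact permutation test, p = 0.667; the smallest p that 2 against 2 libraries allow is 0.333). The highest value of a gene was 1.07 to 1.43 times its lowest over the 4 libraries, and this spread was below the median of 1.3 of the 2989 tested genes at least as abundant as the least abundant of the 10 for 7 of the 10.

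**Figure D3:**
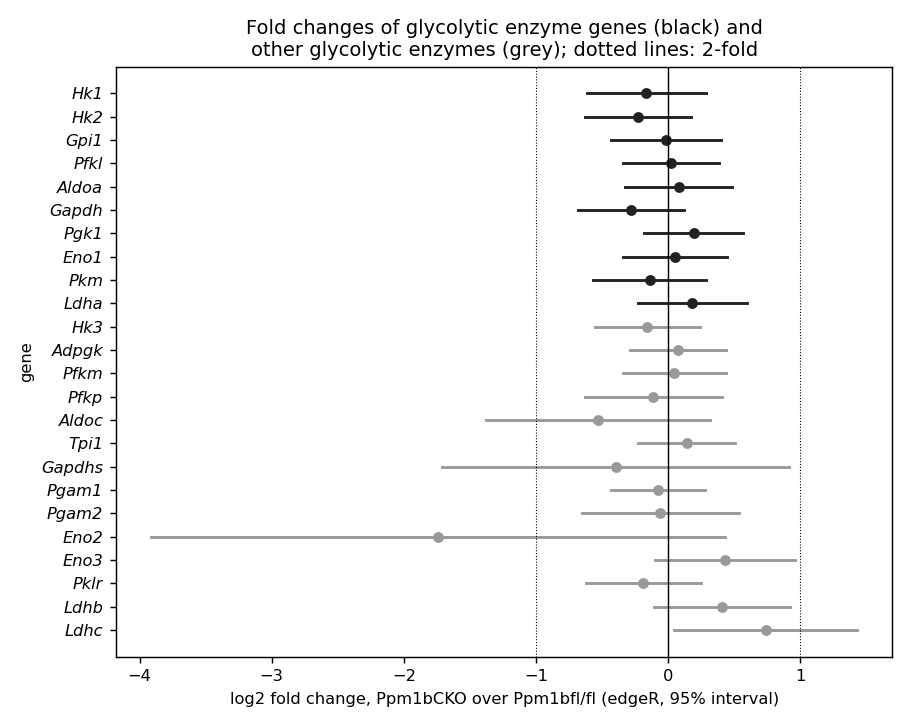
Log2 fold change of each glycolytic enzyme gene (black) and of the other tested glycolytic enzymes (grey), Ppm1bCKO over Ppm1bfl/fl, with 95% intervals from edgeR; dotted lines mark a 2-fold change. All 10 black intervals cross 0 and stay between the dotted lines, from -0.68 to 0.59.

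Ppm1bCKO replicate 2 was the extreme library for 9 of the 10 genes, the highest for Pfkl, Aldoa, Pgk1, Eno1 and Ldha and the lowest for Hk1, Hk2, Gapdh and Pkm. The share over all tested genes was 73.9%. The median distance of the 10 genes from their own 4-library mean, on the log2 scale, was 0.16 in this library and between 0.040 and 0.074 in the other 3. Over all tested genes it was larger, at 0.21 in this library and 0.092 to 0.13 in the others. Most tested genes are less abundant than any of the 10, and this comparison was not matched for abundance. Without Ppm1bCKO replicate 2, the log2 fold changes of Hk2 and Gapdh were -0.07 and -0.14, and those of Pgk1 and Ldha 0.13 and 0.07. The ratio of Pgk1 to Gapdh counts within a library was 1.44 and 1.19 in Ppm1bfl/fl and 1.59 and 2.10 in Ppm1bCKO. This pair was picked as the most positive and the most negative of the 10 genes in the main fit. Each already lay apart between the genotypes, in opposite directions, so their ratio could not overlap (exact permutation p = 0.333, the smallest possible, n = 2). The genotypes overlapped for the ratio of Ldha to Pkm, at 0.528 and 0.630 against 0.627 and 0.827, and for that of Aldoa to Hk1, at 1.39 and 1.09 against 1.20 and 1.76 (exact permutation p = 0.667 for both, n = 2). All 3 ratios were highest in Ppm1bCKO replicate 2. Actb, a cytoskeletal gene that like Gapdh serves as a reference, stood at 20.9 and 18.5 times the counts of Gapdh in Ppm1bfl/fl and at 21.3 and 32.0 times in Ppm1bCKO. The highest Gapdh level was 1.43 times the lowest, the widest range of the 10.

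**Figure D4:**
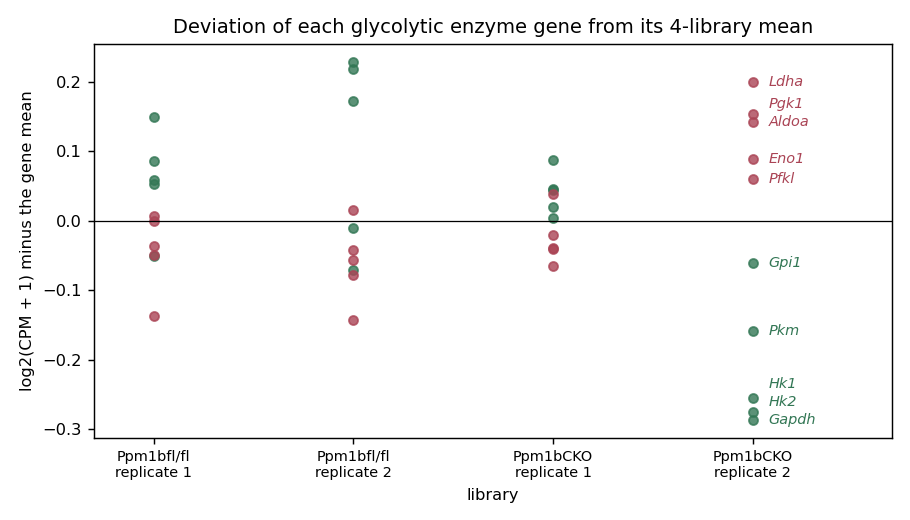
Distance of each glycolytic enzyme gene from its mean over the 4 libraries, in log2(CPM + 1), by library; genes above their mean in Ppm1bCKO replicate 2 are red and the others green, with names at the right. Points of Ppm1bCKO replicate 2 spread the most, with a median distance of 0.16 against 0.040 to 0.074 in the other libraries.

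Levels of different genes were compared per kilobase of exon. On this scale Aldoa, Pkm and Ldha led, with means of 168, 166 and 161 CPM per kilobase whose ranges over the 4 libraries overlapped. Pgk1 followed at 128 (116 to 142), then Gpi1 at 109 (103 to 115) and Eno1 at 92.2 (88.6 to 97.9), each without overlap with its neighbours. Gapdh at 45.2 and Hk1 at 43.2 CPM per kilobase overlapped, as did Hk2 at 14.2 and Pfkl at 13.8, the lowest. Gapdh, whose shared windows are given above, stood lower than Aldoa and Pgk1 in all 4 libraries on this scale. Exonic length here covers every annotated exon of a gene, and for Gapdh it is 4133 bases where the principal transcript has 1420. With the length of the principal transcript the order was Pkm, Aldoa, Ldha, Eno1, Gpi1, Pgk1, Gapdh, Hk1, Pfkl and Hk2, with Gapdh at a mean of 132 CPM per kilobase. On that scale the range of Gapdh (107 to 153) overlapped that of Pgk1 (142 to 175), and Gapdh was the higher of them in Ppm1bfl/fl replicate 2. Eno1 (235 to 259.9) and Gpi1 (231 to 257) also overlapped, and both lay above Pgk1.

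For 5 steps nearly all of the signal came from 1 gene of the set. Shares of a step were taken from CPM per kilobase of exon. Aldoa made up 99.4% to 99.7% of the aldolases and Gapdh 99.1% to 99.5% of its step. Pgk2, the form of sperm cells, had 0 counts in all 4 libraries, which allows up to 0.0995 to 0.132 CPM in a library (3 counts, counting error only), so the share of Pgk1 was 100%. Eno1 made up 93.6% ± 0.32 of the enolases in Ppm1bfl/fl and 92.0% ± 1.1 in Ppm1bCKO, and Ldha 93.0% ± 0.05 and 91.6% ± 0.88 of the lactate dehydrogenases (SD, n = 2; exact permutation p = 0.333 for both, the smallest possible). The remainders were mainly Eno3, the muscle enolase, at 10.4 and 10.8 CPM in Ppm1bfl/fl and 12.2 and 16.3 CPM in Ppm1bCKO (edgeR adjusted p = 0.717), and Ldhb, the heart form, at 14.4 and 15.1 against 16.4 and 22.6 CPM (edgeR adjusted p = 0.717). Both were highest in Ppm1bCKO replicate 2.

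For hexokinase and phosphofructokinase no gene of the set clearly led. Hk3, a hexokinase known from myeloid cells, stood at 238 and 201 CPM in Ppm1bfl/fl, with 211 and 182 CPM in Ppm1bCKO (-0.16 ± 0.17). Per kilobase of exon Hk3 made up 45.4% to 53.6% of the hexokinases, Hk1 34.2% to 41.4% and Hk2 12.0% to 13.2%. With the length of the principal transcript the order turned, with Hk1 at 54.3% and Hk3 at 36.9% on average, so which of them leads depends on the transcript assumed. Hk2 was below both under either length. Hkdc1 had 1 count in all. Neither Hk1 nor Hk3 shares differed between the genotypes beyond their spread (exact permutation p = 1 for both, n = 2). Among phosphofructokinase subunits the muscle type, Pfkm, held 47.6% to 53.4% per kilobase of exon, Pfkl 28.7% to 32.5% and the platelet type, Pfkp, 14.1% to 21.2%, while with principal transcripts the 3 were level at 34.2%, 31.5% and 34.4%. Pfkp stood at 122 and 112 CPM in Ppm1bfl/fl, with 133 and 83.8 CPM in Ppm1bCKO (-0.11 ± 0.23).

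Pyruvate kinase was mixed. Pklr, the form of liver and red cells, stood at 108 and 147 CPM in Ppm1bfl/fl, with 117 and 107 CPM in Ppm1bCKO, and made up 15.5% to 21.7% of the step per kilobase of exon against 78.3% to 84.5% for Pkm. Bpgm, whose product makes bisphosphoglycerate in red cells and so tunes the oxygen affinity of haemoglobin, stood at 134 and 216 CPM in Ppm1bfl/fl, with 184 and 231 CPM in Ppm1bCKO (0.25 ± 0.24). Red cell markers, of which 9 of 10 were tested and none was at 0, summed to 7170 and 12735 CPM in Ppm1bfl/fl and to 10819 and 15603 CPM in Ppm1bCKO. Bpgm and the red cell sum were both lowest in Ppm1bfl/fl replicate 1 and highest in Ppm1bCKO replicate 2, and Pklr was highest in Ppm1bfl/fl replicate 2. The part of red cells in the levels of glycolytic genes was not tested.

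**Figure D5:**
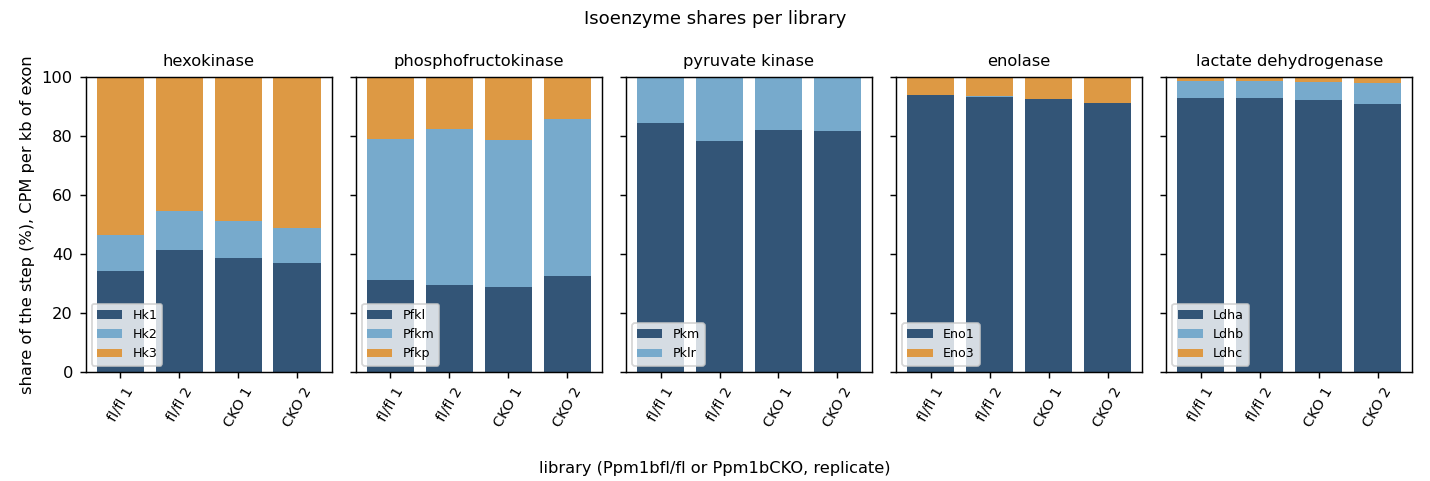
Share of each isoenzyme in its step, in percent of CPM per kilobase of exon, as stacked bars that start at 0, for each of the 4 libraries; genes under 0.5% are drawn without a name. Hk3 and Pfkm hold about as much as the rest of their steps together (45.4% to 53.6% and 47.6% to 53.4%), while Pkm, Eno1 and Ldha hold 78.3% or more.

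The other 14 tested enzymes of the pathway, from 18 listed, also held 0 called genes. An unadjusted p under 0.05 was found for 1 of the 14, where 6.44% of all tested genes had one. Tpi1, the isomerase between aldolase and Gapdh, ran at 242 and 257 CPM in Ppm1bfl/fl, with 265 and 284 CPM in Ppm1bCKO (0.14 ± 0.16), and Pgam1, the mutase before enolase, at 206 and 202 against 201 and 186 CPM (-0.08 ± 0.16). Adpgk, which uses ADP in place of ATP to phosphorylate glucose, ran from 173 to 194 CPM. The gene under 0.05 was Ldhc, the lactate dehydrogenase of sperm cells, at 2.86 and 3.61 CPM in Ppm1bfl/fl and 4.57 and 6.24 CPM in Ppm1bCKO (edgeR adjusted p = 0.717).

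Transporters and regulators of the pathway showed no called change either. Of 9 transporter genes 0 passed (6 positive, 3 negative, median log2 fold change 0.07). Slc2a1, which encodes the glucose carrier GLUT1, stood at 24.7 and 24.8 CPM in Ppm1bfl/fl, with 28.4 and 27.6 CPM in Ppm1bCKO. Slc16a3, a lactate exporter, stood at 65.7 and 61.5 CPM in Ppm1bfl/fl, with 73.1 and 71.4 CPM in Ppm1bCKO. Both genes lay higher in Ppm1bCKO without overlap, at log2 fold changes of 0.18 ± 0.18 and 0.18 ± 0.16. These 2 of 9 transporter genes are 22.2%, beside 41.1% of all tested genes without overlap (20.6% higher in Ppm1bCKO). Slc2a4, the insulin-responsive carrier, ran from 9.10 to 15.1 CPM. Of 7 tested regulators of flux 0 passed, with a median of -0.23. Pfkfb4, a bifunctional enzyme that sets the level of an allosteric activator of phosphofructokinase, stood at 34.6 and 35.3 CPM in Ppm1bfl/fl, with 26.9 and 21.1 CPM in Ppm1bCKO, for a log2 difference of -0.54 ± 0.19 (edgeR adjusted p = 0.7). Its relative Pfkfb3 ran from 50.1 to 57.8 CPM (0.06 ± 0.17), and Pfkfb2 from 5.27 to 11.3 CPM (-0.58 ± 0.29).

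Branches out of glycolysis were measured as well. Of 14 genes that carry pyruvate into the mitochondrion and oxidise it, 0 passed (median 0.10). Pdk1, a HIF-1 target that blocks pyruvate dehydrogenase, stood at 86.5 and 76.3 CPM in Ppm1bfl/fl, with 77.7 and 67.0 CPM in Ppm1bCKO (-0.17 ± 0.17), and Pdk2, a related kinase, at 15.7 and 14.8 against 13.4 and 9.35 CPM. Pdhb, a subunit of pyruvate dehydrogenase, had a log2 fold change of 0.27 ± 0.16. Pdpr, a regulator of that complex, ran from 5.18 CPM in Ppm1bCKO replicate 2 to 26.9 CPM in Ppm1bfl/fl replicate 1, with the other libraries at 25.0 and 21.3 CPM. Of 7 genes of the pentose phosphate pathway, which makes NADPH and ribose, 0 passed, with a median of 0.27 and 5 positive. Rpia, Taldo1 and Rpe had log2 fold changes of 0.37 ± 0.21, 0.31 ± 0.19 and 0.27 ± 0.17 (edgeR adjusted p from 0.717 to 0.72).

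No gene of the HIF pathway lists passed the test. Of 9 tested regulators, 0 passed, and Hif1a, which encodes the oxygen-regulated subunit, stood at 63.1 and 64.9 CPM in Ppm1bfl/fl, with 80.3 and 69.7 CPM in Ppm1bCKO (0.23 ± 0.16, edgeR adjusted p = 0.725). Its partner Arnt and Vhl, which marks it for destruction, had log2 fold changes of -0.23 ± 0.17 and 0.28 ± 0.18. Of 15 HIF targets outside glycolysis 0 passed, with 12 positive and 3 negative log2 fold changes and a median of 0.22 beside -0.0032 over all genes. The list was not tested as a set. An unadjusted p under 0.05 was found for 2 of the 15, where 6.44% of all tested genes had one. One of these 2 was Adm, which encodes the vasodilator peptide adrenomedullin and rested on few reads, with 1 and 7 counts in Ppm1bfl/fl and 20 and 29 in Ppm1bCKO, or 0.0376, 0.232, 0.88 and 1.22 CPM (edgeR adjusted p = 0.351). Adm was called without the low-count filter, with the replicate number as a block and without Ppm1bCKO replicate 1. The other was Higd1a, a mitochondrial gene, at 20.4 and 20.6 CPM in Ppm1bfl/fl and 24.3 and 39.7 CPM in Ppm1bCKO (edgeR adjusted p = 0.717). Ddit4, an inhibitor of the growth kinase mTORC1, had a log2 fold change of 0.40 ± 0.19.

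The promoters of the glycolytic enzyme genes were searched for the core to which HIF-1 binds, ACGTG or GCGTG on either strand, which reads CACGT or CACGC on the other strand; ACGTG also lies within CACGTG, the site of MYC and its relatives. Windows ran from 250 bases before to 50 after a start in RefSeq (GRCm38.p6). All 10 genes matched the table, with 17 windows, of which 13 held a core (76.5%), beside 43.8% of all 32851 windows in the table. Taking for each gene the window nearest the start of its principal transcript, 7 of 10 held a core, and 0 held CACGTG, which 7.15% of all windows hold. Of the 17 windows of the 10 genes, 1 held CACGTG (5.88%). Hk1, Gpi1 and Pkm were those without a core in the nearest window, but for Hk1 and for Pkm 1 of 2 RefSeq windows held a core. The nearest RefSeq starts of Pkm, Eno1 and Ldha lay 208, 244 and 49 bases from the start of the principal transcript. A match describes letters and is not a binding site. The windows of Hk2 and Pgk1, each with 2 matches, are printed as an example from each direction among the 4 genes whose genotypes did not overlap. The Hk2 window is chr6:82774405-82774704 on the minus strand and the Pgk1 window is chrX:106186850-106187149 on the plus strand, with cores in capitals, 5′ to 3′.
Hk2: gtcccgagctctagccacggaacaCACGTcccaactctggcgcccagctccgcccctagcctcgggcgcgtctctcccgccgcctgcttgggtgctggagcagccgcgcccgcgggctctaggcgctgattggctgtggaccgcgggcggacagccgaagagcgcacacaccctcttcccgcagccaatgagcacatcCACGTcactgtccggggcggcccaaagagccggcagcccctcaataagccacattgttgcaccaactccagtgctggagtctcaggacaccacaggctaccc
Pgk1: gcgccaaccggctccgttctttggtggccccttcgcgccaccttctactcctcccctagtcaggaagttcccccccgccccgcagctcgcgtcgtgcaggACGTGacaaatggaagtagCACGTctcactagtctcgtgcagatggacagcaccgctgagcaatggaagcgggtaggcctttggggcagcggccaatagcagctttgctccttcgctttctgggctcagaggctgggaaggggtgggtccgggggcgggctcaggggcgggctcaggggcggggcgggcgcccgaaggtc

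Other reference genes of expression assays were compared with Gapdh and Pgk1, which serve as such too. Of 12 genes 0 passed, with 10 log2 fold changes above 0, 2 below, and a median of 0.17. Actb stood at 4031 and 4025 CPM in Ppm1bfl/fl, with 3954 and 4859 CPM in Ppm1bCKO (0.13 ± 0.22). B2m, the light chain of MHC class I, stood at 1375 and 1671 against 1963 and 2504 CPM (0.55 ± 0.22 on the log2 scale, edgeR adjusted p = 0.717). Hprt and Ppia had log2 fold changes of 0.43 ± 0.21 and 0.39 ± 0.22.

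Marker transcripts of other cell types differed between the libraries beside these values. Of the 73 tested markers in 8 lists, edgeR called 1, Igha, lower in Ppm1bCKO (-2.24 ± 0.30 on the log2 scale, edgeR adjusted p = 0.0225). Over all tested genes it called 0.372%. Plasma cell and B cell markers summed to 21711 and 13050 CPM in Ppm1bfl/fl and to 4147 and 5750 CPM in Ppm1bCKO. Eosinophil markers summed to 2932 and 3227 CPM in Ppm1bfl/fl and to 4413 and 7722 CPM in Ppm1bCKO, and all 10 macrophage markers had negative log2 fold changes, with sums of 818 and 843 CPM against 484 and 604 CPM. Neutrophil markers summed to 4410 to 4556 CPM in Ppm1bfl/fl and to 4550 and 5293 CPM in Ppm1bCKO. T cell and NK cell markers summed to 212 to 279 CPM over the 4 libraries and stromal markers to 483 to 847 CPM. No listed marker that was in the table was at 0 in all libraries. The part of these cells in the levels of glycolytic enzyme genes was not tested.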

How the data were processed

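Bulk RNA-seq was measured in 4 mouse libraries, 2 per genotype. The deposited table holds raw whole-number counts per gene and the authors' exonic length of each gene. The submitters' processing notes list HISAT2 2.2.0, featureCounts 2.0.1 and Trim Galore 0.6.7, and the build mm10; the annotation release, strand setting and treatment of reads with several matches are not stated in those notes or the labels. Of 55399 identifiers, 55139 matched a symbol without their version number, in a table of gene names or GENCODE M21, and 260 did not. No column was left out.

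Counts were tested with edgeR 4.0.16 (R 4.3.3; TMM, filterByExpr at 10 counts per gene and 15 in total, robust quasi-likelihood, no covariates), and Benjamini-Hochberg adjustment ran over 16393 genes with a threshold of 0.05. The error given with a log2 fold change is its standard error. Tests on simulated counts of 16315 genes at these depths made 0 false calls and found 35 of 100 genes at a 2-fold and 97 of 100 at a 4-fold change. The simulation gave all genes the same spread and changed only well-counted genes. It had no library that stood apart as Ppm1bCKO replicate 2 did, so its rates cannot be carried over to these data. Replicates differed beyond sampling noise (chi-square per degree of freedom 22.9 and 47.8). Exact sharing of sequence was counted over windows of 50 and 100 bases of the principal transcripts (best APPRIS level, then longest), on both strands, against all GENCODE M21 transcripts; the sources used here give no read length.

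The 10 genes and the 16 other lists were chosen with earlier results of these data known. Named genes were all 10, the isoenzymes of the same steps, up to 3 genes with the smallest p per pathway list, a few regulators whatever their p, and from the marker lists some of the most abundant; other enzymes of the pathway, Kit and Ly6a were named as well. The alternatives were DESeq2 size factors, DESeq2 1.42.0, limma-voom (limma 3.58.1), 2 other filters on low counts, a block for the replicate number, leaving out each library, immunoglobulin genes left out and each library's trend with gene length removed (lowess span 0.3). Shares with the length of the principal transcript were added after the data were seen. An item withheld for evaluation is not reported here.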

Additional observations from a re-analysis of the deposited data

How the results depend on the processing

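Under 12 alternatives the 10 glycolytic enzyme genes gave 120 fold changes, of which 111 kept their direction and stayed on the same side of the threshold. The 2 that passed it were Hk2 (-0.40, edgeR adjusted p = 0.048) and Gapdh (-0.43, edgeR adjusted p = 0.0412), both without Ppm1bCKO replicate 1, where the lone Ppm1bCKO library is assumed to vary like the others. The 7 that changed sign were near 0. With a library left out, Gpi1 ran from -0.093 to 0.060 (above 0 without Ppm1bfl/fl replicate 1 or Ppm1bCKO replicate 2, at 0.036 in the latter), Pfkl from -0.030 to 0.070 (-0.0075 without Ppm1bfl/fl replicate 1), Aldoa from -0.027 to 0.18 and Eno1 from -0.017 to 0.11, the last 3 lowest without Ppm1bCKO replicate 2. Gpi1 was 0.059 with the length trend removed. The cause was not tested.

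With each library left out in turn, 0 to 2 of the 10 genes were called, and their median log2 fold change ran from -0.022 to 0.026; it was 0.036 with the length trend removed. Over all genes, 61 calls became 94 to 3336 with a library left out (145 and 214 without Ppm1bfl/fl replicates 1 and 2, 3336 and 94 without Ppm1bCKO replicates 1 and 2), 311 with no filter, 199 by DESeq2 and 0 with immunoglobulin genes left out. With a library left out, genes of the other pathway lists were called only without Ppm1bCKO replicate 1, when Ppm1bCKO replicate 2 alone represented the genotype. No transporter gene was called in any of these fits. HIF targets had 1 call with no filter, where 1.10% of all tested genes were called. The marker lists had 5 to 24 calls with a library left out, 18 with no filter, 0 without immunoglobulin genes, 4 with the length trend removed and 17 by DESeq2, beside 1.

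With the replicate number as a block, edgeR called 207 genes (1.26% of those tested), 0 of the 10, 1 HIF target and 15 markers. Same-numbered libraries deviated together at a correlation of 0.0905 over genes, and the labels do not say that a number pairs samples.

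Shares of CPM without division by length were 31.6% for Hk3, 27.5% for Pfkm, 99.7% for Gapdh, 97.5% for Eno1, 87.3% for Pkm and 96.2% for Ldha. With principal transcript lengths they were 36.9%, 34.2%, 99.7%, 96.8%, 89.2% (Pkm) and 94.9% (Ldha), and 99.7% for Aldoa. With 2 libraries per genotype and the same spread for all genes, 35 of 100 simulated 2-fold changes were recovered. Smaller changes were not simulated.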
